A study of Mus musculus with 12 samples.

Results

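The 37 genes of the mouse mitochondrial genome were followed in liver RNA as every row of the gene count matrix placed on the mitochondrial chromosome (MT), out of 54532 rows in all. They comprise 13 mRNAs, 2 rRNAs and 22 tRNAs, and these classes were kept apart. The livers came from wild-type, chow-fed mice that had carried an adenovirus for 9 days, in a study of ANGPTL8, a secreted protein that takes part in the control of plasma triglyceride clearance. Each of 4 groups held 3 libraries. ANG8 livers received a virus to raise ANGPTL8 and were set against Ad_GFP livers, which received a control virus named for green fluorescent protein. shANG8 livers received a virus with a short hairpin against Angptl8 and were set against shCtrl livers, which received a control hairpin virus. All 12 livers therefore carried a virus, and the sources used here do not give the promoters of the viruses. The labels do not say whether the libraries of a group came from separate mice, so p-values measure the spread between these libraries, which may be technical.

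Mitochondrial DNA is a small circle transcribed from both strands as long precursors. In most places a tRNA stands between the protein-coding genes, and cutting the tRNAs out of the precursor frees the mRNAs and rRNAs, which the textbooks call tRNA punctuation. The mRNAs encode core subunits of complexes I, III, IV and V of oxidative phosphorylation, and liver cells hold many copies of the circle. All but 1 of the mRNAs, mt-Nd6, are read from the same strand as the rRNAs, and most of the mature mRNAs carry short poly(A) tails.

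Total counts per library ranged from 12537083 to 15144312, and 14686 genes passed the filter on low counts and were tested. No pair of libraries within a group was a repeat of the other by a chi-square test of the counts (13.9 to 145 per gene). Angptl8 itself was listed at 164, 313 and 172 CPM (read counts scaled to a common total; library sizes were scaled by TMM, the trimmed mean of M values) in ANG8 livers, against 96.7, 80.3 and 89.95 in Ad_GFP livers (log2 fold change 1.28, adjusted p = 0.0201, edgeR quasi-likelihood test). It was at 144, 142 and 79.2 in shANG8 livers, against 340, 390 and 167 in shCtrl livers (log2 fold change -1.29, adjusted p = 0.235, same test). The control groups were not alike in Angptl8: every shCtrl library was above every Ad_GFP library (log2 fold change 1.75, adjusted p = 0.338, same test). The hepatocyte markers Alb, Apoa1 and the rest of a 10-gene list were present throughout. Their summed levels were 25979 to 60101 CPM in ANG8 livers and at least 41740 CPM in the other libraries. Summed levels of gene lists, here and below, are CPM of total counts without TMM scaling. The summed level of 7 markers of heart, skeletal muscle and brown fat, tissues rich in mitochondria, did not exceed 2.59 CPM in any library.

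All 37 mitochondrial rows have the coordinates that GENCODE vM21 gives for GRCm38. The nuclear genome holds a long, recent insertion of mitochondrial DNA on chromosome 1, and the count matrix lists 7 pseudogenes inside it, between positions 24611535 and 24616197 on the minus strand. A comparison of the annotated transcripts placed these pseudogenes against mt-Co1, mt-Co2, mt-Atp6, mt-Co3, mt-Nd3, mt-Nd4l and mt-Nd4, which together run over MT 6390 to 11042. Over the aligned bases, 5 of the 7 showed 0 mismatches to their mitochondrial gene. The other two, Gm29216 and Gm28438, showed 1 mismatch each. These are shown because they are the only bases within the alignments by which a read of either place can be told apart. Gm28438 carries T3C relative to mt-Nd3, counted from 1 at the first base of mt-Nd3, and Gm29216 carries A1066T relative to mt-Co1, counted in the same way. The alignment of Gm29216 began at base 1063 of mt-Co1, so A1066T lies at its edge. Bases beyond the alignments were not compared. The base that differs is in capitals in each window, written 5′ to 3′ from the GENCODE vM21 transcripts.
mt-Nd3, chrMT:9459-9476, plus strand: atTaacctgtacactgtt
Gm28438, chr1:24613102-24613119, minus strand: atCaacctgtacactgtt
mt-Co1, chrMT:6390-6408, plus strand: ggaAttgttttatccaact
Gm29216, chr1:24616170-24616188, minus strand: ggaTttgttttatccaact

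The aligned part covered nearly all of 5 genes: bases 1 to 681 of the 684 bases of mt-Co2, 1 to 678 of 681 of mt-Atp6, 1 to 783 of 784 of mt-Co3, 1 to 345 of 348 of mt-Nd3 and 1 to 294 of 297 of mt-Nd4l. It covered 63.6% of mt-Nd4 and 31.3% of mt-Co1. The sources used here name neither the aligner nor its treatment of reads that match several places, so the counts of these 7 genes are uncertain. mt-Atp8 and 5 tRNA genes (mt-Ts1, mt-Td, mt-Tk, mt-Tg and mt-Tr) also lie within the same stretch of MT, with no annotated pseudogene of their own, and the chromosome 1 bases between the pseudogenes were not read here.

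Reads per base dropped sharply inside this stretch. Expressed per length, as the percentage of all mt mRNA counts in a library per kb of gene, mt-Co1, the catalytic subunit of cytochrome c oxidase, led with a median of 25.5% per kb over the 12 libraries (range 23.4 to 27.7). mt-Cytb, the mitochondrial subunit of complex III, followed at 18.1 (15.4 to 19.8), then the complex I subunits mt-Nd2 at 14.0 (11.1 to 16.5), mt-Nd1 at 9.17 (6.67 to 11.8) and mt-Nd4 at 6.36 (5.34 to 6.91). The ranges of mt-Cytb, mt-Nd2, mt-Nd1 and mt-Nd4 overlapped from each to the next, although mt-Cytb exceeded mt-Nd2 within all 12 libraries and mt-Nd2 exceeded mt-Nd1 within 11. mt-Nd6 and mt-Nd5, again complex I, stood together at 2.87 (1.95 to 3.76) and 2.85 (2.27 to 3.81) per kb.

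The 6 mRNAs that lie wholly inside the stretch were the 6 lowest. mt-Co3, mt-Co2 and mt-Atp6 had medians of 0.711, 0.666 and 0.666% per kb with overlapping ranges, mt-Nd4l had 0.162, mt-Nd3 had 0.0465, and mt-Atp8 had 0.00712. Median reads per base were 0.252 to 26.4 for these 6 mRNAs, against 87.9 to 623 for the 5 mRNAs wholly outside and 205 to 874 for mt-Co1 and mt-Nd4, which are partly inside. mt-Co2 had 2.52% of the reads per base of its neighbour mt-Co1 (median, range 1.53 to 4.14), although both encode subunits of complex IV. The 5 tRNA genes inside never exceeded 10 counts in a library. Some tRNA genes outside were as low: mt-Tf and mt-Tv were at 0 throughout, and mt-Ta and mt-Tt never exceeded 11 and 7 counts.

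**Figure D1:**
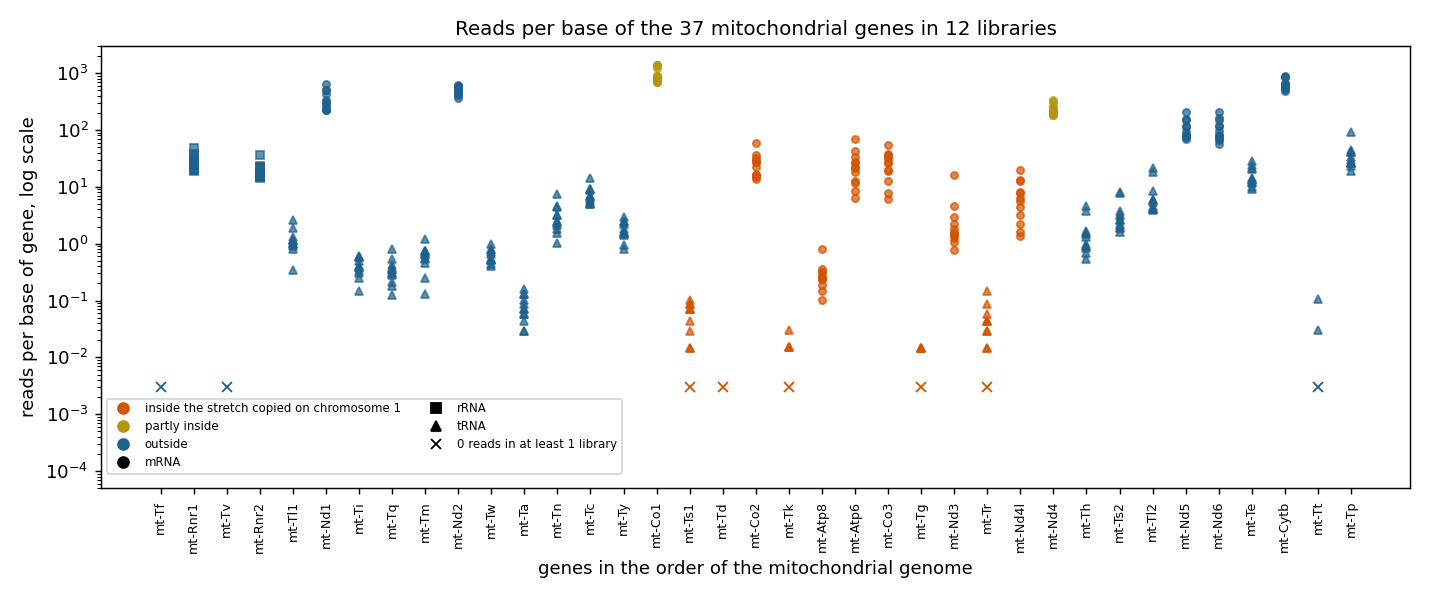
Reads per base of gene (y axis, log scale) for the 37 mitochondrial genes in genome order (x axis), 1 point per library with a count above 0, coloured by position relative to the stretch copied on chromosome 1. Within every library the orange mRNAs lie below every blue or yellow mRNA, and crosses mark genes with 0 reads in at least 1 library.

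The chromosome 1 rows held 0.120 to 0.464% of all counts in a library. Gm28661 held 40.2 to 185% as many counts as mt-Co2, Gm28438 held 47.9 to 860% as many as mt-Nd3, and Gm10222 held 10.5 to 126% as many as mt-Nd4l. For Gm28437 against mt-Co3 the range was 13.8 to 103%, and for Gm10925 against mt-Atp6 it was 22.4 to 78.3%. The pseudogenes of the partly covered genes held far less of the counts, with Gm29216 at 0.159 to 0.520% of mt-Co1 and Gm28439 at 0.485 to 0.833% of mt-Nd4. The split between a mitochondrial gene and its copy thus varied several-fold between libraries for the fully covered genes.

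Most genes of MT abut, and 9 pairs overlap by at least 1 base. mt-Atp8 and mt-Atp6, subunits of ATP synthase on 1 shared transcript, overlap by 43 bases, the longest overlap on MT, shown in capitals with 15 bases on each side because a read within it belongs to both genes.
mt-Atp8 and mt-Atp6, chrMT:7912-7984, plus strand: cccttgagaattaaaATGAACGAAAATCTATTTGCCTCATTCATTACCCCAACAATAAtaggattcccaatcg

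mt-Nd5 and mt-Nd6 overlap by 14 bases (MT 13552 to 13565) on opposite strands. mt-Nd6 is the single mRNA of the other strand, and in mammals the mt-Nd5 mRNA is known to run on past its reading frame on the strand opposite to mt-Nd6. The sources used here do not state the strand setting of the counting, so reads of the 2 strands cannot be told apart. Per base, mt-Nd6 had 97.9% of the reads of mt-Nd5 (median, range 81.7 to 109% over 12 libraries), with a coefficient of variation of 8.27%. The 6 other pairs computed varied more, for example 21.9% for mt-Cytb over mt-Nd5 and 29.2% for mt-Nd1 over mt-Nd2. These pairs were picked by hand, and some include a tRNA or mt-Co2. Other pairs of abundant mRNAs, such as mt-Nd4 and mt-Cytb, were not computed. Whether the mt-Nd6 to mt-Nd5 ratio was unusually constant was therefore not tested.

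Among the tRNA counts, mt-Tp (proline) took a median of 44.0%, mt-Te (glutamate) 21.3%, mt-Tc (cysteine) 9.30% and mt-Tl2 (leucine) 8.60%. The 8 tRNA genes annotated on the minus strand held 69.4 to 85.7% of all tRNA counts, against 14 on the plus strand. With the strand setting of the counting unknown, this split cannot be read as the strand the reads came from. Mature tRNAs are short and folded and have no poly(A) tail, so a library of this kind does not measure their full pool. The 3 tRNA genes at 0 in every library (mt-Td, mt-Tf and mt-Tv) were below a limit of 0.239 CPM in the shallowest library, the level that 3 counts would give. The 6 tRNA genes that the results turn on are shown whole, with the anticodon in capitals as found from its letters in the middle of each gene.
mt-Tn, asparagine, chrMT:5089-5159, minus strand: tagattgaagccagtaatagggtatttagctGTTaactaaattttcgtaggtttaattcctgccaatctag
mt-Th, histidine, chrMT:11546-11612, plus strand: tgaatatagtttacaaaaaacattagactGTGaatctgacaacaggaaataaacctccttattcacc
mt-Ts2, serine, chrMT:11613-11671, plus strand: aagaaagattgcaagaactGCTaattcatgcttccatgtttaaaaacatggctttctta
mt-Tl2, leucine, chrMT:11671-11741, plus strand: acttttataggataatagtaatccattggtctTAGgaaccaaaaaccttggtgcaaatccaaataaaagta
mt-Tp, proline, chrMT:15356-15422, minus strand: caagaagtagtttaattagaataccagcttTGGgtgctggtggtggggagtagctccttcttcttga
mt-Te, glutamate, chrMT:14071-14139, minus strand: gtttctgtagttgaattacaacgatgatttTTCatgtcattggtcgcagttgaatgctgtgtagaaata

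The share of all counts on MT varied widely within the overexpression arm. MT rows took 39.0, 43.8 and 22.5% of the counts in the 3 ANG8 libraries, against 19.8, 34.9 and 26.4% in the Ad_GFP libraries. ANG8 replicate 3 lay below Ad_GFP replicates 2 and 3, so the groups overlapped, and the difference of 8.06 percentage points was within the spread (exact permutation test, two-sided, p = 0.3; 3 libraries against 3 cannot go below 0.1). Without ANG8 replicate 3 the difference was 14.4 points, and leaving out any 1 of the 6 libraries gave 3.71 to 14.4. In the knockdown arm the shares were 22.7, 22.9 and 19.3% in shANG8 livers, against 24.2, 22.9 and 23.6% in shCtrl livers. The 95% Wilson intervals of these shares were at most 0.0546 points wide and cover counting error only.

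By class, the mRNAs took 18.9 to 42.9% of all counts, the rRNAs 0.288 to 0.826% and the tRNAs 0.0222 to 0.0942%. The mRNA share was 22.3, 22.5 and 18.9% in shANG8 livers and 23.7, 22.5 and 23.3% in shCtrl livers. All shANG8 values were below all shCtrl values, by a margin of less than the rounding between shANG8 replicate 2 and shCtrl replicate 2. The mean difference was -1.95 points (exact permutation p = 0.1, Benjamini-Hochberg adjusted p = 0.514 over 12 shares). With 3 libraries against 3, no exact p can go below 0.1, so none of the 12 tests could pass an adjusted threshold of 0.05. The difference shCtrl minus Ad_GFP changed sign for the MT share without Ad_GFP replicate 2 (-3.51 points with it, 0.424 without).

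**Figure D2:**
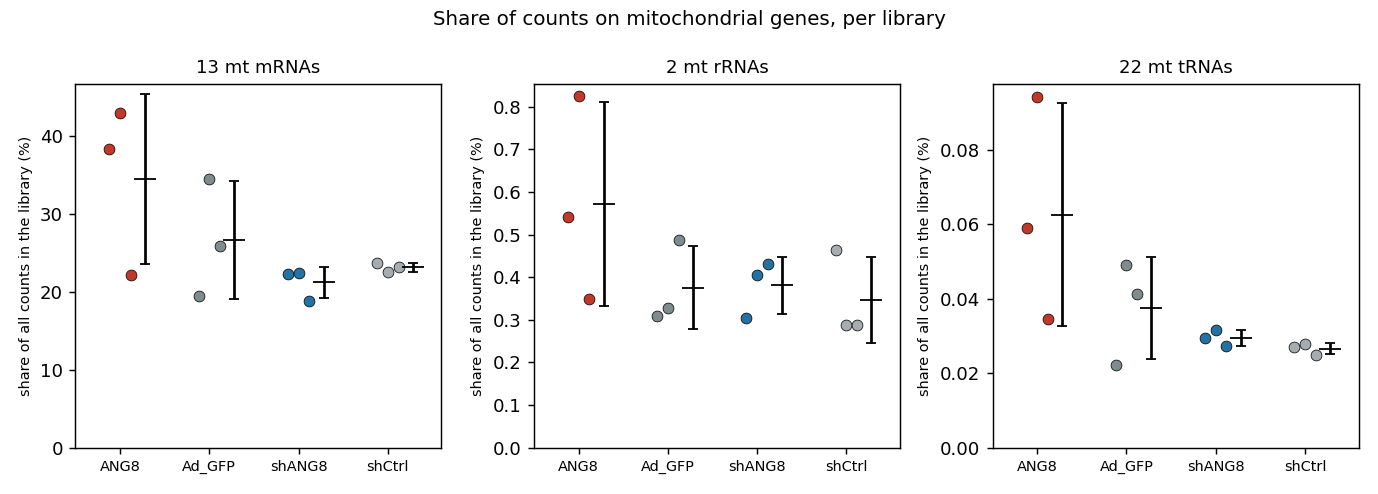
Share of all counts (y axis, %) taken by mt mRNAs, rRNAs and tRNAs in each library, with the group mean and SD (n = 3) beside the points. ANG8 and Ad_GFP libraries overlap in each panel. For mRNAs and tRNAs they are spread widely, while the shANG8 and shCtrl libraries lie close together. For rRNAs the SD is 0.102 points in shCtrl and 0.0977 in Ad_GFP libraries.

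On CPM of total counts, which include the MT counts, the 3 libraries with the highest MT share had the lowest levels of Alb, the gene of serum albumin. Alb stood at 15683, 16311 and 25488 CPM in ANG8 replicate 2, ANG8 replicate 1 and Ad_GFP replicate 2, against 29274 to 51055 CPM in the other 9 libraries. As CPM of the counts outside MT, a scale that the MT share cannot move, Alb was 27922, 26745 and 39167 in these libraries, and 37970 to 63285 in the other 9. On that scale ANG8 replicates 1 and 2 were still the lowest, but Ad_GFP replicate 2 lay above shANG8 replicate 2 (37970). Of the 10 hepatocyte markers, 6 were called lower in ANG8 than in Ad_GFP livers, with a median log2 fold change of -0.96 over the list, against 6.39% of all tested genes called lower. Of 9 macrophage and Kupffer cell markers, 7 were called higher, with summed levels of 702 to 1083 CPM in ANG8 and 288 to 430 in Ad_GFP livers, against 7.08% of all tested genes called higher. Of 8 T and NK cell markers, 5 were called higher and 1 lower (median log2 fold change 1.20), with summed levels of 107 to 135 CPM in ANG8 and 40.0 to 60.7 in Ad_GFP livers. In bulk RNA, fewer cells of a type and less RNA per cell cannot be told apart, and the part of these markers in the MT share was not tested.

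Of the 37 genes, 28 passed the filter: all 13 mRNAs, both rRNAs and 13 tRNAs. Of these 28, 3 were called higher in ANG8 than in Ad_GFP livers and 0 lower by edgeR's quasi-likelihood test, at an adjusted p under 0.05 over all tested genes. That is 10.7% of the members, against 13.5% of all tested genes called in either direction and 7.08% called higher. All 3 are tRNA genes. The median log2 fold change of the 28 was 0.47, with 25 above 0 and 3 below, against a median of -0.0002 over all tested genes.

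mt-Tn, the tRNA for asparagine, was at 24.0, 43.6 and 18.8 TMM-scaled CPM in ANG8 livers and 6.83, 13.3 and 15.5 in Ad_GFP livers. All ANG8 values were above all Ad_GFP values, and the log2 fold change was 1.27 (SE 0.39, adjusted p = 0.0444, edgeR quasi-likelihood test). mt-Th, the tRNA for histidine, was at 18.4, 25.0 and 6.67 CPM in ANG8 livers and 3.79, 6.51 and 6.85 in Ad_GFP livers. ANG8 replicate 3 lay within the Ad_GFP range, and the log2 fold change was 1.54 (SE 0.42, adjusted p = 0.0239). mt-Ts2, a tRNA for serine, was at 33.9, 38.0 and 10.9 CPM in ANG8 livers and 6.95, 14.4 and 10.5 in Ad_GFP livers, overlapping in the same way (log2 fold change 1.38, SE 0.40, adjusted p = 0.0397).

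mt-Th, mt-Ts2 and mt-Tl2 lie side by side between mt-Nd4 and mt-Nd5 at MT 11546 to 11741. mt-Tl2 was at 93.8, 124 and 25.4 CPM in ANG8 livers and 20.0, 44.7 and 27.5 in Ad_GFP livers, with a log2 fold change of 1.40 that did not pass (adjusted p = 0.0916). Taken as the log2 ratio of the summed counts of these 3 tRNAs over those of the flanking mRNAs mt-Nd4 and mt-Nd5, the ANG8 libraries had -8.35, -8.53 and -9.41 and the Ad_GFP libraries had -9.71, -9.63 and -9.67. All ANG8 values were above all Ad_GFP values, also in replicate 3, with a mean difference of 0.91. This ratio was formed after the calls for mt-Th and mt-Ts2 were seen in the same libraries, so it is given as a description with no test. In the knockdown arm the ratio was -10.07, -9.61 and -9.01 in shANG8 and -9.78, -9.89 and -9.55 in shCtrl libraries. The mean difference there was 0.18 and the groups overlapped. shANG8 replicate 3 lay above ANG8 replicate 3.

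**Figure D3:**
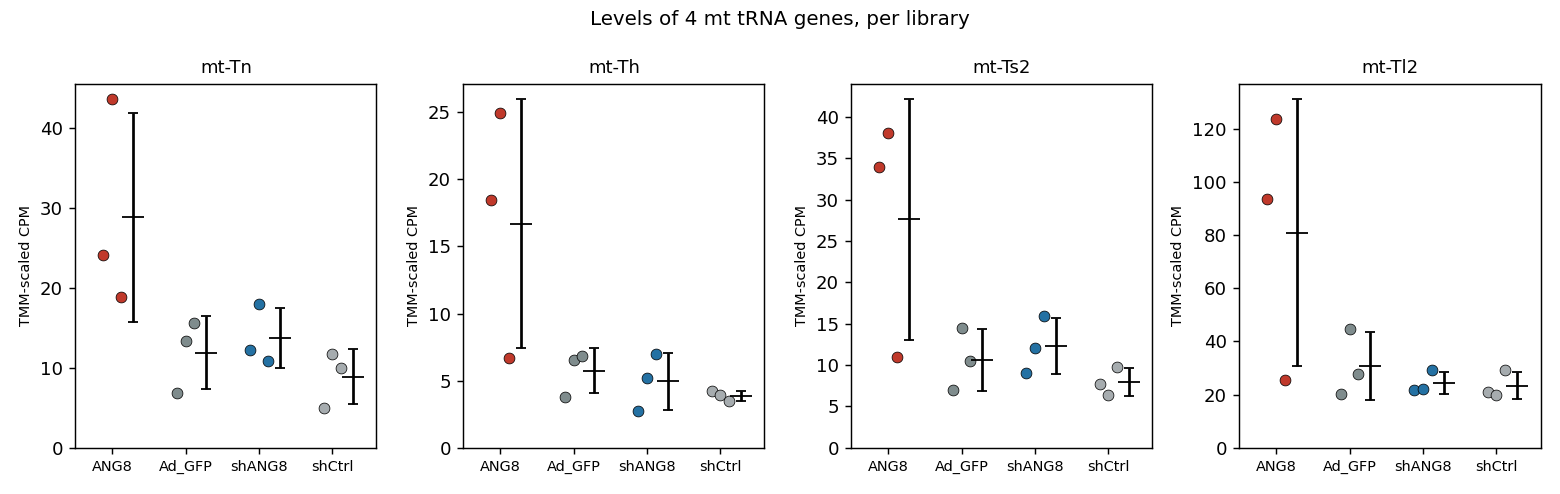
TMM-scaled CPM (y axis) of 4 mt tRNA genes in each library, with group mean and SD (n = 3). ANG8 replicates 1 and 2 are above all other libraries for each of the 4, and ANG8 replicate 3 is above all Ad_GFP libraries for mt-Tn only.

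These tRNA calls rested on few libraries. Without ANG8 replicate 1 or 2, or without Ad_GFP replicate 1 or 2, 0 of the 28 genes were called, and without ANG8 replicate 3 there were 7. The summed level of 11 listed cytosolic rRNA-related genes and RNAs without a poly(A) tail was also higher, at 1066 to 1333 CPM in ANG8 against 608 to 701 in Ad_GFP livers, with 5 of the 11 at 0 in every library. Its members differed from library to library. As CPM of total counts, Gm26917, 1 of its most abundant genes, was at 639, 401 and 751 in ANG8 livers. Gm26917 was thus lowest in replicate 2, where mt-Tn, mt-Th, mt-Ts2 and mt-Tl2 were highest. On the same scale Lars2, also listed, was at 602, 631 and 538, highest in replicate 2. Mouse cytosolic rRNA reads are known to fall on Lars2. With TMM scaling it was at 562 ± 95.8 CPM in ANG8 and 210 ± 55.0 CPM in Ad_GFP livers (SD, n = 3 each). In the knockdown arm, where 0 mt tRNAs were called, Lars2 was at 505 ± 126 CPM in shANG8 and 195 ± 79.0 CPM in shCtrl livers, also with no overlap (log2 fold change 1.37, adjusted p = 0.0682, edgeR). Malat1, a nuclear-retained RNA, was at 467, 1423 and 203 CPM of total counts in ANG8 and 236, 360 and 230 in Ad_GFP libraries. It was highest in the same library as the tRNAs. The part of Malat1 and of the listed RNAs in the tRNA levels was not tested.

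None of the 13 mRNAs and neither rRNA was called in ANG8 against Ad_GFP livers. In that comparison 8 of the 28 genes had an unadjusted p under 0.05. DESeq2 called 5 of the 28 and limma voom called 1, in each case tRNAs or mt-Atp8. mt-Co1 was at 154660, 178474 and 77142 CPM in ANG8 livers and 67374, 139838 and 92737 in Ad_GFP livers, with a log2 fold change of 0.45 (SE 0.33). The 5 mRNAs wholly outside the copied stretch spanned 0.09 for mt-Nd2 to 0.54 for mt-Nd5. mt-Rnr2, the large rRNA, was at 2579, 4747 and 1516 CPM in ANG8 and 1523, 1639 and 2285 in Ad_GFP livers (log2 fold change 0.70, adjusted p = 0.168), and mt-Rnr1, the small rRNA, had 0.47 (adjusted p = 0.345). mt-Nd4, like mt-Co1 partly inside, had 0.21 (SE 0.30). Of the 6 wholly inside, mt-Nd3 had -1.56 (SE 0.97) and mt-Co3 -0.68 (SE 0.56), while mt-Co2, mt-Atp6, mt-Nd4l and mt-Atp8 had log2 fold changes of 0.65, 0.47, 0.56 and 1.29, and the SEs of the 6 ran from 0.35 to 0.97.

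Replicate spread differed between the arms. The coefficient of variation of the 13 mRNA levels had a median of 41.2% in ANG8 and 36.8% in Ad_GFP libraries, against 18.1% in shANG8 and 10.98% in shCtrl libraries. Single genes reached 124% in Ad_GFP libraries, where mt-Nd3 was at 31.5, 56.4 and 370 CPM.

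In shANG8 against shCtrl livers 0 of the 28 genes were called, against 0.191% of all tested genes (0.0613% higher and 0.129% lower), and 2 had an unadjusted p under 0.05. limma voom also called 0 and DESeq2 called 1, mt-Nd4l. mt-Nd4l, a subunit of complex I, was at 35.6, 51.2 and 28.3 CPM in shANG8 livers and 113, 64.6 and 101 in shCtrl livers. All shANG8 values were below all shCtrl values (log2 fold change -1.27, SE 0.36, adjusted p = 0.327, edgeR). mt-Co3, a subunit of complex IV, was at 455, 1204 and 330 CPM in shANG8 livers and 1937, 1382 and 2231 in shCtrl livers, again with no overlap (log2 fold change -1.48, SE 0.57, adjusted p = 0.551). Both lie in the copied stretch. Their pseudogenes did not show the same size of difference in the edgeR fit: Gm10222 had a log2 fold change of -0.29 (SE 0.40) and Gm28437 had 0.48 (SE 0.79).

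In all, 4 of the 28 genes did not overlap between shANG8 and shCtrl libraries, against 12.9% of all tested genes (6.16% higher and 6.78% lower). The other two, mt-Tc and mt-Tm, were higher in shANG8 livers, with log2 fold changes of 0.40 and 0.57 that did not pass. In ANG8 against Ad_GFP livers 2 of the 28 did not overlap (mt-Tn and mt-Tq), against 34.1% of all tested genes. The control groups were also set against each other. shCtrl minus Ad_GFP gave 0 called members, as it gave 0 among all tested genes (0% called), with 3 of the 28 at an unadjusted p under 0.05 and 0 called by DESeq2 or limma voom. There mt-Nd4l was lower without overlap and mt-Tq higher, 2 of 28 against 16.1% of all tested genes (7.66% higher and 8.45% lower). This comparison uses the same control libraries as the other two.

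**Figure D4:**
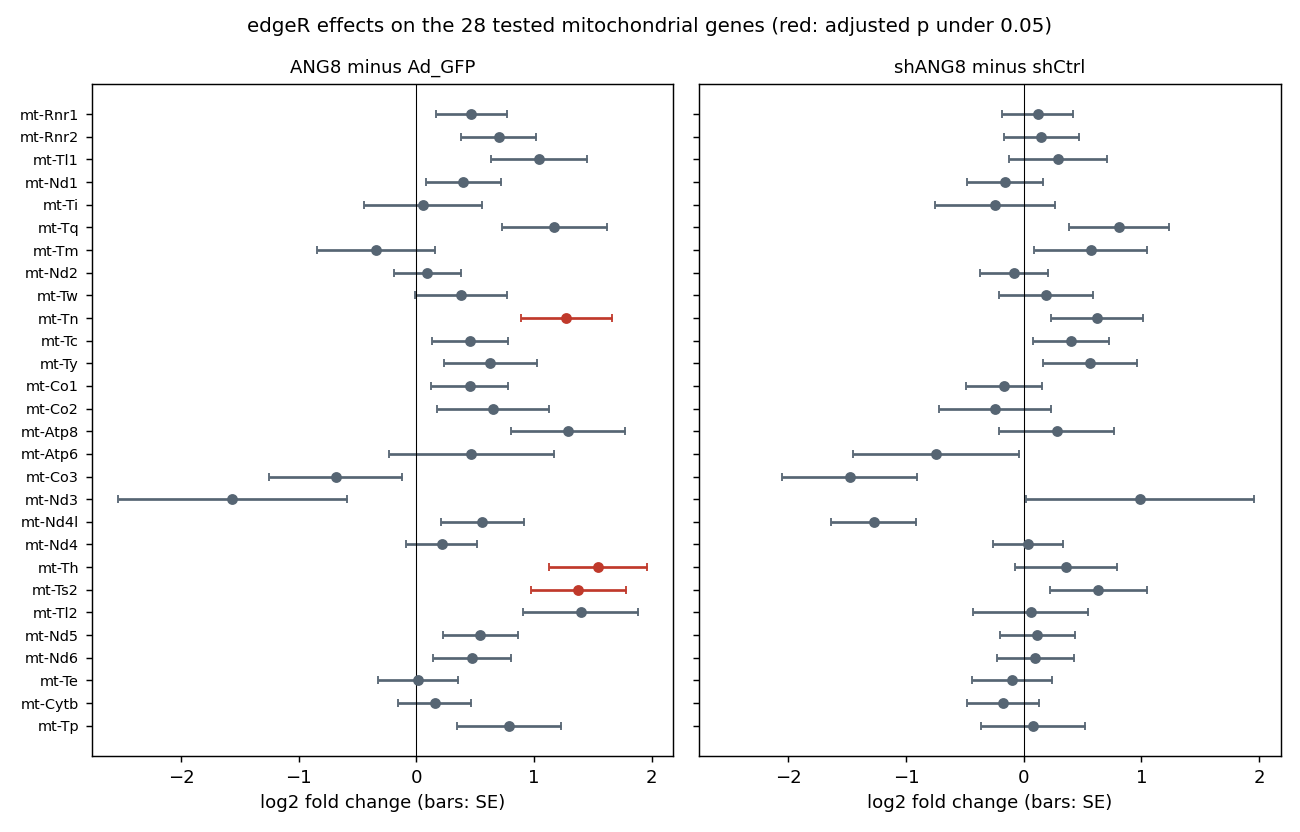
Log2 fold change with its SE (x axis) of the 28 tested mitochondrial genes in genome order (y axis) for ANG8 minus Ad_GFP and shANG8 minus shCtrl. The 3 called genes, in red, are mt-Tn, mt-Th and mt-Ts2 in the ANG8 panel, and the bars of the copied genes mt-Co3, mt-Nd3 and mt-Atp6 are among the widest.

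The difference between the overexpression and the knockdown effect was called for 1 of the 28 genes, mt-Nd4l, against 6.62% of all tested genes (3.72% above 0 and 2.9% below). mt-Nd4l was at 174, 302 and 353 CPM in ANG8 livers and 119, 289 and 153 in Ad_GFP livers, which overlap. The difference of the effects was 1.84 on the log2 scale (SE 0.51, adjusted p = 0.0476, edgeR quasi-likelihood test) and passed in 11 of 20 alternative fits, with adjusted p between 1.53e-07 and 0.117. With the counts of Gm10222 added to those of mt-Nd4l it was 1.46 (adjusted p = 0.0454). It did not pass without any 1 of 8 libraries: Ad_GFP replicate 1 or 3, ANG8 replicate 2 or 3, shCtrl replicate 1 or 3, or shANG8 replicate 1 or 3, with values of 1.60 to 1.81.

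The make-up of the mRNA counts was compared next, as the share of each mRNA in the mt mRNA counts of its library. mt-Co1 took 42.8, 40.0 and 40.3% of the mt mRNA counts in ANG8 livers and 36.1, 38.5 and 37.2% in Ad_GFP livers, with no overlap and a mean difference of 3.77 points. mt-Nd2 took 11.5 to 12.1% in ANG8 and 12.5 to 16.2% in Ad_GFP livers, and mt-Cytb took 19.3, 17.6 and 19.0% in ANG8 and 21.7, 21.1 and 19.6% in Ad_GFP livers. Both were lower in every ANG8 library than in any Ad_GFP library. mt-Nd5 took 5.80, 6.95 and 6.39% in ANG8 and 5.12, 5.58 and 5.72% in Ad_GFP livers, higher in every ANG8 library. ANG8 replicate 3, which differed from the other ANG8 libraries in total MT share, did not stand apart in these proportions.

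With mt-Co3 and mt-Atp8, 6 of the 13 shares did not overlap between ANG8 and Ad_GFP libraries. For comparison, 13.1% of all tested genes did not overlap when each was taken as a ratio to the mt mRNA counts, a scale on which nuclear genes also carry the changes of the pool. Every such share had an exact permutation p of 0.1 (two-sided, adjusted p = 0.244 over 39 tests, 13 shares in 3 comparisons). That is the lowest p that 3 libraries against 3 can give, so none could pass. By complex, the share of complex IV was 43.6, 41.2 and 41.0% in ANG8 against 37.4, 39.8 and 38.4% in Ad_GFP livers. The complex III share is the mt-Cytb share. Each had an adjusted p of 0.40 (exact permutation test) over 24 tests, 8 ratios in 3 comparisons. The complex IV share was nearly all mt-Co1, with means of 41.9 and 41.0% in ANG8 livers. mt-Co2 and mt-Co3, both in the copied stretch, took means of 0.529 and 0.365% there. mt-Co3 was lower in every ANG8 library than in any Ad_GFP library (mean difference -0.401 points). The complex IV share also separated the control groups, at 39.8, 41.9 and 42.2% in shCtrl against the Ad_GFP values above, a difference of 2.84 points beside 3.44 for ANG8 minus Ad_GFP. The shares of a pool sum to 100%, so a higher share of one member lowers the others.

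In the knockdown arm 4 of the 13 shares did not overlap, against 14.7% of all tested genes on the same ratio. mt-Nd5 took 5.29, 4.77 and 4.62% in shANG8 and 4.14, 4.13 and 4.16% in shCtrl livers, and mt-Nd4 took 9.52, 9.09 and 9.18% in shANG8 and 8.16, 8.42 and 8.27% in shCtrl livers. Both were higher in every shANG8 library, and mt-Co3 and mt-Nd4l were lower (exact permutation p = 0.1 each, adjusted p = 0.244). mt-Nd5 thus had the higher share in ANG8 against Ad_GFP and also in shANG8 against shCtrl livers, by 0.907 and 0.745 points. mt-Co1 overlapped between shANG8 and shCtrl livers, with a mean difference of -0.904 points.

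**Figure D5:**
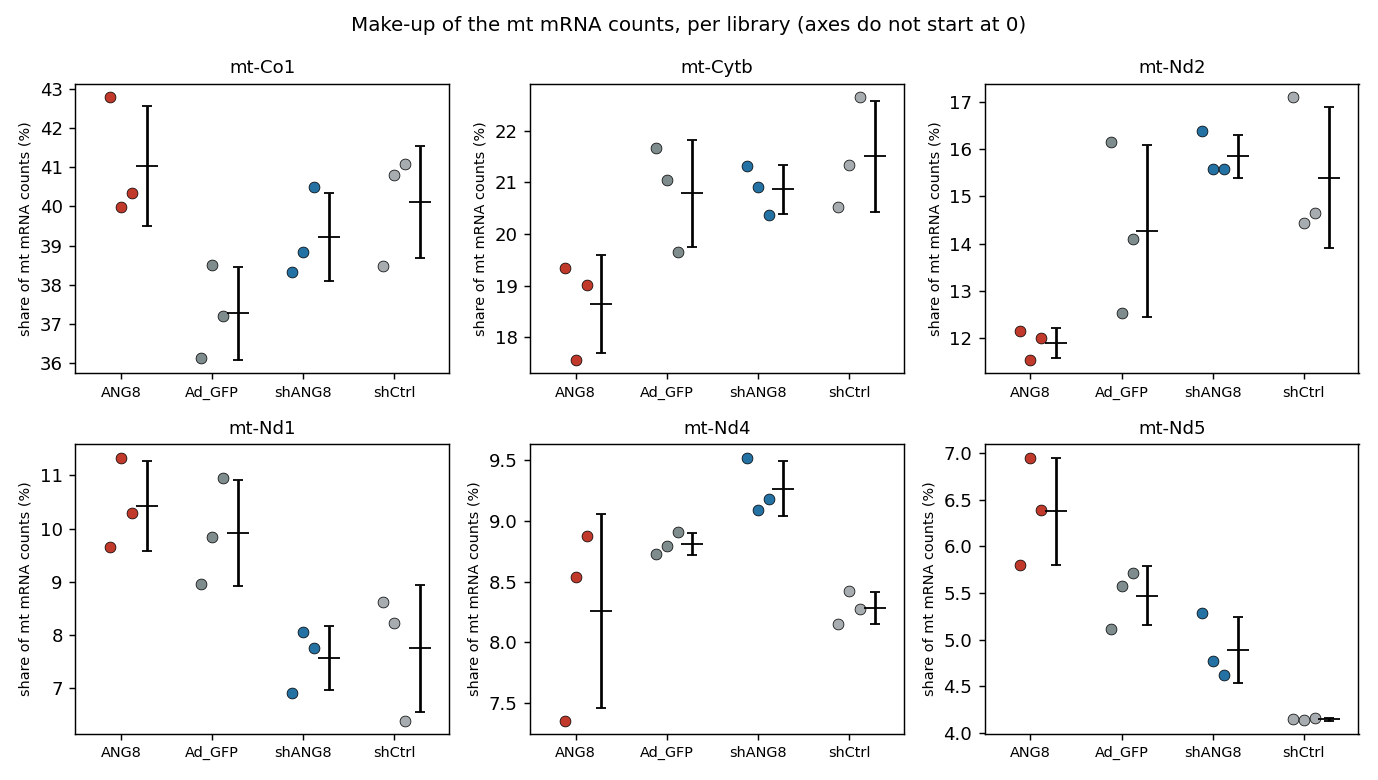
Share of the mt mRNA counts (y axis, %, not starting at 0) of 6 mRNAs in each library, with group mean and SD (n = 3). mt-Co1 and mt-Nd5 are higher and mt-Cytb and mt-Nd2 lower in all ANG8 than in all Ad_GFP libraries, and mt-Nd4 and mt-Nd5 are higher in all shANG8 than in all shCtrl libraries.

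Restricting the pool to the 6 mRNAs without an annotated near-identical copy, an alternative chosen after seeing the data, kept mt-Nd5 apart in both arms. It took 11.96 to 14.1% of that pool in ANG8 and 9.60 to 10.998% in Ad_GFP livers, and 10.3, 9.42 and 9.34% in shANG8 and 8.06, 8.38 and 8.49% in shCtrl livers. mt-Nd2 and mt-Cytb overlapped between ANG8 and Ad_GFP libraries on that pool.

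The control groups differed from each other in make-up as well. Of the 13 shares, 6 did not overlap between shCtrl and Ad_GFP libraries, against 6.67% of all tested genes on the ratio to mt mRNA counts. mt-Nd1, mt-Nd3, mt-Nd4, mt-Nd4l, mt-Nd5 and mt-Nd6, all of complex I, were each lower in every shCtrl library. With the strand setting unknown, mt-Nd5 and mt-Nd6 may not be separate differences. mt-Nd2, the remaining complex I mRNA, had a mean difference of 1.13 points with overlap, and the complex I share as a whole also overlapped (-3.43 points, exact permutation p = 0.2). mt-Nd5 took 4.14, 4.13 and 4.16% in shCtrl and 5.12, 5.58 and 5.72% in Ad_GFP livers, a difference of -1.33 points that is larger in size than either ANGPTL8 comparison gave. Angptl8 was also higher in every shCtrl than in any Ad_GFP library (log2 fold change 1.75, adjusted p = 0.338, edgeR quasi-likelihood test). The labels do not say whether the arms were run together, so virus type, run and Angptl8 level cannot be told apart here.

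Ratios between the classes were compared in the same way, 8 ratios in each of 3 comparisons. The log2 ratio of tRNA over mRNA counts was -9.56, -9.47 and -9.43 in shANG8 and -9.78, -9.66 and -9.87 in shCtrl livers. It was higher in every shANG8 library by a mean of 0.28 (exact permutation p = 0.1, adjusted p = 0.40 over 24 tests). It overlapped between ANG8 and Ad_GFP libraries (mean difference 0.34). The log2 ratio of mt-Rnr1 over mt-Rnr2, 2 rRNAs cut from the same precursor, was -0.20, -0.30 and -0.42 in shCtrl and -0.08, 0.15 and 0.08 in Ad_GFP livers, lower in every shCtrl library (mean difference -0.36). The log2 ratio of mt-Nd6 over the 12 mRNAs of the other strand was also lower in every shCtrl library than in any Ad_GFP library (mean difference -0.51). The strand setting of the counting is not known, so the mt-Nd6 ratio cannot be read as a ratio between the strands. In ANG8 against Ad_GFP livers both ratios overlapped.

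Mitochondria draw most of their proteins from the nucleus, so lists of nuclear partners were read in the same fit. Of the nuclear subunits of complex I, 6 of 37 were called lower and 0 higher in ANG8 than in Ad_GFP livers, with a median log2 fold change of -0.40, against 6.39% of all tested genes called lower. Ndufb2 was at 7.97 ± 0.957 CPM in ANG8 and 20.4 ± 1.56 in Ad_GFP livers (SD, n = 3 each, log2 fold change -1.36). It was at 10.004 ± 1.97 in shANG8 and 20.7 ± 3.78 in shCtrl livers (log2 fold change -1.05, adjusted p = 0.0387 by edgeR). Ndufb2 was the 1 called nuclear subunit of the 5 complexes in the knockdown arm, beside 0.191% of all tested genes called there. For complex II, 1 of 4 was called lower (Sdhb), for complex III 3 of 9 (among them Cyc1, cytochrome c1, at -0.72), for complex IV 1 of 13 (Cox7b) and for complex V 1 of 17, with 1 higher. The member called higher was Atpif1, an inhibitor of ATP synthase, at 36.1 ± 3.89 CPM in ANG8 and 12.9 ± 4.73 in Ad_GFP livers (log2 fold change 1.48). Of all tested genes 7.08% were called higher in that comparison. The mt mRNAs, which encode subunits of complexes I, III, IV and V but not of complex II, had a median log2 fold change of 0.45 with 0 called.

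Genes that make and handle mitochondrial RNA were read in ANG8 against Ad_GFP livers beside the 6.39% of all tested genes called lower and the 7.08% called higher. Of 18 genes of mtDNA transcription and replication 1 was called lower, Polg2, an accessory subunit of the mtDNA polymerase (log2 fold change -1.27), while the polymerase Polrmt and the packaging factor Tfam were among the 17 not called. Of 31 genes of mt RNA processing and decay 2 were called lower, namely Grsf1, an RNA granule protein (-0.69), and Lrpprc, which stabilises mt mRNAs (-0.63). Of 77 mt ribosomal proteins 1 was called lower, Mrpl39, and of 14 translation factors 0 were called. Of 14 regulators of mitochondrial biogenesis 1 was called lower, Ppargc1a, the coactivator PGC-1alpha, at 3.48 ± 0.783 CPM in ANG8 and 9.74 ± 4.27 in Ad_GFP livers (log2 fold change -1.48, adjusted p = 0.0179, edgeR).

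Of 15 genes of mitophagy and mitochondrial shape 2 were called lower (Map1lc3b and Opa1), and of 18 stress and protease genes 2 were called higher, beside the same 6.39% and 7.08% of all tested genes. These were Gdf15, a secreted factor induced under mitochondrial stress, at 82.1 ± 21.5 CPM in ANG8 and 23.7 ± 5.90 in Ad_GFP livers, and Ddit3 (log2 fold change 0.89). Of 10 carriers and membrane proteins 1 was called higher, Slc25a4, an ADP/ATP carrier (log2 fold change 1.29). In shANG8 against shCtrl livers 0 members of the lists on transcription, RNA processing, ribosomes, translation, biogenesis, mitophagy, stress and carriers were called, beside 0.191% of all tested genes.

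The nuclear genes whose levels followed the mt mRNAs most closely were named by Pearson correlation of log2 CPM with the mean of the 13 mRNAs over the 12 libraries, which share depth and scaling. They were Zc3h13, a subunit of an RNA methylation complex (r = 0.957), Ncoa3, a nuclear receptor coactivator (0.943), the mt-Atp6 pseudogene Gm10925 (0.932), Alkbh1, a demethylase that acts on tRNAs (0.931), and Pde1b, a cyclic nucleotide phosphodiesterase (0.931). Zc3h13 ranged from 24.9 to 72.9 CPM over the libraries. Gm10925 shares its bases with mt-Atp6, so its place in this list carries the uncertainty of shared reads.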

How the data were processed

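The authors deposited raw, whole-number counts of reads per gene for 12 liver libraries, with no normalization. Per the labels, the RNA came from a Trizol extraction and the NEBNext Ultra RNA kit was used; whether poly(A) RNA was selected is not stated. mm9 is the build in the submitters' processing notes, which also list featureCounts 1.5.0-p3 and CASAVA 1.8.2, whereas all 37 mitochondrial rows match GRCm38 (GENCODE vM21). Counts were tested in R 4.3.3 with edgeR 4.0.16: filterByExpr, TMM scaling, a robust quasi-likelihood fit over all 12 libraries and Benjamini-Hochberg adjustment over 14686 genes, checked on simulated data. Shares and ratios were compared by exact two-sided permutation tests over libraries. Alternatives were other scalings, no filter, a replicate block, limma voom (limma 3.58.1), DESeq2 1.42.0, leaving out each library, adding pseudogene counts and other denominators. Near-identical copies were transcripts with at least 99% identity over at least 200 bases of a mitochondrial gene. Of 9 listed nuclear copies 7 met this, Gm11808 did not and is not used, and 1 symbol was not matched.

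All 13 mRNAs and both rRNAs, tested tRNAs, up to 4 members of each nuclear list by smallest p in the arms and the 5 nearest patterns could be named. The examples given from each list were picked with the values known. The members and lists were chosen with earlier results of these data known.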

Additional observations from a re-analysis of the deposited data

Results flagged for a closer look

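The effect on mt-Nd4l differed between the arms. The log2 fold change in ANG8 minus Ad_GFP livers exceeded that in shANG8 minus shCtrl livers by 1.84 (SE 0.51, adjusted p = 0.0476, edgeR quasi-likelihood interaction test). The call was lost without any 1 of 8 of the 12 libraries, and 11 of 20 alternative fits passed, with adjusted p between 1.53e-07 and 0.117. The level was 276 ± 92.3 CPM in ANG8 and 187 ± 90.1 in Ad_GFP livers, and 38.4 ± 11.7 in shANG8 and 92.8 ± 25.2 in shCtrl livers (SD, n = 3 each). mt-Nd4l lies in the stretch copied on chromosome 1. Its pseudogene Gm10222 held 66.7, 39.6 and 10.5% as many counts as mt-Nd4l in ANG8 and 28.4, 25.0 and 34.1% in Ad_GFP libraries, which overlap. The values were 98.1, 107 and 126% in shANG8 and 44.7, 66.8 and 59.7% in shCtrl libraries. The control groups thus also differed from each other in this split. The part of shared reads in the mt-Nd4l difference was not tested.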

How the results depend on the processing

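The number of mitochondrial genes called depended on the fit. For ANG8 minus Ad_GFP, with 3 called, the counts were 6 with no filter on low counts, 5 by DESeq2, 1 by limma voom, 0 with only the 2 groups fitted, and 0 to 7 when 1 library was left out. For shANG8 minus shCtrl, with 0 called, they were 1 with no filter and 1 by DESeq2. For shCtrl minus Ad_GFP, with 0 called, the count was 1 with no filter. For the difference of the effects, with 1 called, it was 2 with no filter, 0 with a replicate block, and 0 to 1 when 1 library was left out. Same-numbered libraries had correlated deviations of -0.07 to 0.15 between ANG8 and Ad_GFP and 0.03 to 0.19 between shANG8 and shCtrl, and 4 of 6 libraries in each arm correlated best with their own number. Between shANG8 and Ad_GFP they were 0.17 to 0.26, with 6 of 6 best matched, a hint from the data that the labels do not explain. Since not every pair was above 0.1, the numbers were not taken as pairs. With the replicate block mt-Nd4l had a difference of 1.94 (adjusted p = 0.0609, edgeR), and 2 genes were called for ANG8 minus Ad_GFP.

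Leaving out 1 library gave -7.13 to 0.424 points for the MT share and -7.05 to 0.482 for the mRNA share of shCtrl minus Ad_GFP, -0.0878 to 0.0272 points for its rRNA share and -0.25 to 0.24 for its log2 rRNA over mRNA. It gave -0.094 to 0.40 for log2 rRNA over mRNA and -0.167 to 0.126 points for the complex V share in ANG8 minus Ad_GFP, and -0.077 to 0.034 for log2 mt-Rnr1 over mt-Rnr2 in shANG8 minus shCtrl. The complex V share of ANG8 minus Ad_GFP was -0.00390 points as reported, 0.00593 with pseudogene counts added and 0.00814 per kb. The complex I share of ANG8 minus Ad_GFP was -1.29 points and 2.03 with the 6 mRNAs without a copy, chosen after seeing the data. The causes were not tested. The other 356 alternative values of the counts, shares and ratios kept the sign of the reported value or, for counts, stayed within 1.5 times. At this depth tRNA genes with under 10 counts a library could not be compared.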
